A study of Arabidopsis thaliana with 6 samples.

Results

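The SAUR (SMALL AUXIN UP RNA) genes encode small proteins, and many of them are switched on by the growth hormone auxin. The set described here holds 55 SAUR genes, picked by locus identifier from the 32678 genes of the count table. They were chosen as a family with results of the comparison below already known, so every value of that comparison is given as a description of these libraries. Transcripts were counted in leaves of wild-type Col-0 plants and of 35S:RPS4 plants, with 3 libraries per genotype. In 35S:RPS4 a constitutive viral promoter drives a tagged copy of RPS4, an intracellular immune receptor of the TIR-NBS-LRR class, throughout the plant and at either temperature. Both genotypes spent 3.5 weeks in growth at 28 °C and were sampled 2 h after a shift to 19 °C, the step that releases RPS4 signalling. Both groups therefore had the same cooling, and libraries from before the shift are not analysed here. Since nothing in the labels ties a replicate to a plant, a pool or a repeat preparation, errors and tests measure the spread between these libraries, which may be technical.

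Many SAUR proteins promote cell expansion. Members of the SAUR19 type bind and inhibit PP2C.D phosphatases, which otherwise remove an activating phosphate from the proton pumps (AHA proteins) of the plasma membrane, and pump activity acidifies and loosens the cell wall. SAUR transcripts and proteins are short-lived, and their genes respond to auxin, light, temperature and brassinosteroids, often through auxin response factors (ARFs) and PHYTOCHROME INTERACTING FACTORS (PIFs). Many SAUR genes stand next to each other as tandem copies. Of the 55 genes, 30 lie in 6 such clusters on chromosomes 1, 2, 3, 4 and 5, with 2 clusters on chromosome 4, and 25 stand alone or as pairs at other loci.

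RPS4 was measured at 21.2, 29.8 and 30.2 CPM (counts scaled to a common library size) in Col-0 replicates 1 to 3 and at 605, 759 and 907 CPM in 35S:RPS4. The levels matched the labels in all 6 libraries. Between 28659022 and 31007551 gene counts were made in a library, and 18382 genes passed the filter on low counts and were tested. Leaf mesophyll markers summed to 46580 to 49020 CPM in Col-0 and 47020 to 53650 CPM in 35S:RPS4. Ranges were 172 to 230.7 against 154.6 to 182.1 CPM for epidermis, 261.6 to 339.5 against 283.5 to 290.1 for phloem, 23.3 to 24.92 against 25.39 to 29.58 for guard cells and 7.518 to 13.09 against 9.929 to 12.17 for dividing cells. None of these 16 markers was at 0 or passed the test, and their part in the values below was not tested. In whole leaves, fewer cells of a type and less RNA per cell cannot be told apart.

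Most of the 55 SAUR transcripts were lower in 35S:RPS4, and a small group was higher. Summed over the 55 genes, SAUR transcripts amounted to 235, 241 and 233 CPM in Col-0 and to 147, 142 and 133 CPM in 35S:RPS4, or 236 ± 4.12 and 140.4 ± 7.15 CPM (SD, n = 3). Each 35S:RPS4 library was below every Col-0 library, and the ratio of the means was 0.594. Log2 fold changes (log2FC) are 35S:RPS4 minus Col-0 throughout. A gene is called raised or lowered at a false discovery rate (FDR, edgeR quasi-likelihood test with Benjamini-Hochberg adjustment over all tested genes) below 0.01 and an absolute log2FC above 1, the thresholds of the study. By this rule 17 SAUR genes were lowered, beside 1.37% of all tested genes, and 3 were raised, beside 6.46% of all. The raised genes were SAUR72, SAUR59 and SAUR5. The other 17 tested members were not called. With the replicate number added to the fit as a block, 20 members were lowered and 4 raised. Over all tested genes the block gave 330 lowered and 1329 raised, against 251 and 1188 without it.

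The 37 tested members had a median log2FC of -1.99 with a range of -3.70 to 2.11, against a median of 0.01 over all tested genes. The log2FC was below 0 in 31 of them (49% of all genes) and below -1 in 27 (2.76% of all genes). In 27 members every 35S:RPS4 library lay below every Col-0 library, as in 16.3% of all genes, in 6 every 35S:RPS4 library lay above, as in 17.9% of all genes, and in 4 the groups overlapped. At an FDR below 0.05 with no threshold on the fold, 23 members were lower and 6 higher, beside 6.26 and 10.5% of all genes. These counts do not stand in for the family, because the filter on low counts favours genes that are high in either group: 16 tested members exceeded its level of 0.333 CPM in all 6 libraries, 17 in every Col-0 library but not in every 35S:RPS4 library, and 3 the other way round. Of all 55 genes, 50 had a count, and 38 of these had the lower mean CPM in 35S:RPS4 and 12 the higher. The like share over all genes with a count was not computed, and 13 of the 50 had too few counts to be tested. The number of calls depended on single libraries: with replicate 1, 2 or 3 of Col-0 left out, 13, 6 and 5 members were lowered, and with that of 35S:RPS4 left out 21, 5 and 13. Over all tested genes the same fits lowered 211, 105 and 99 genes, and 337, 108 and 128. The 4 lowered genes SAUR15, SAUR28, SAUR62 and SAUR66 and the raised gene SAUR72 kept their calls in each of these 6 fits, and the other 13 lowered genes lost theirs in at least 1 of them.

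**Figure D1:**
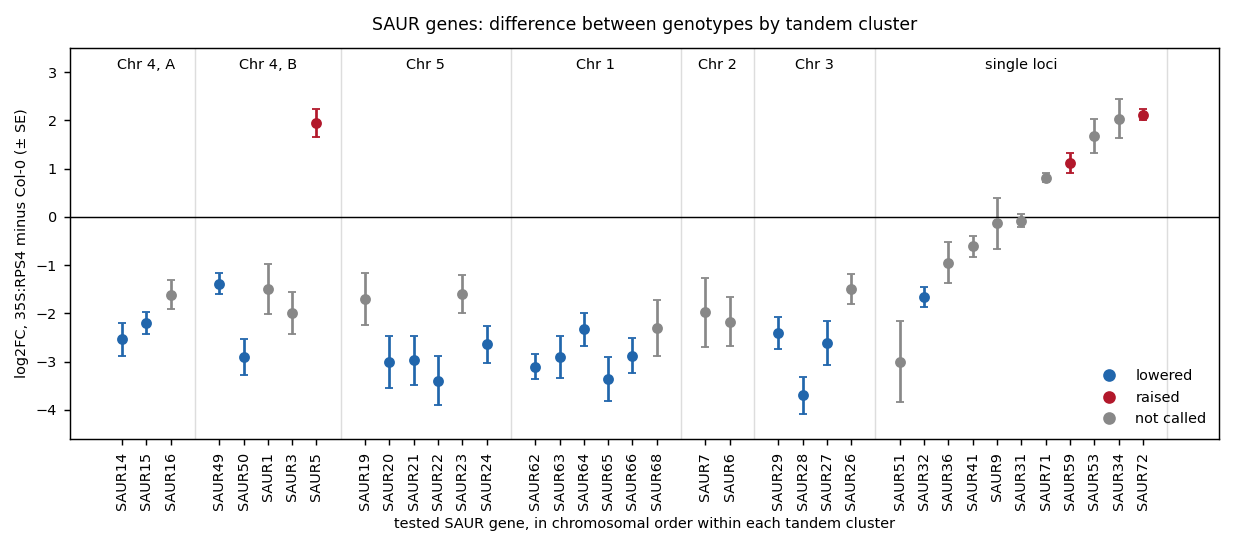
Log2 fold change (35S:RPS4 minus Col-0, y axis) with its standard error for each of the 37 tested SAUR genes, grouped by tandem cluster along the x axis and sorted by value among the single loci. Blue points are lowered, red points raised and grey points not called. Of the 26 tested genes in clusters, 25 lie below 0 (49% of all tested genes) and SAUR5 lies at 1.94, whereas the 11 single-locus genes run from -2.999 to 2.11. The filter on low counts favours genes that are high in either group. Of the 37 genes, 17 exceeded its level in every Col-0 library but not in every 35S:RPS4 library, and 3 the other way round.

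The tandem clusters and the single loci differed in the summed transcript level. The chromosome 1 cluster (SAUR61 to SAUR66 and SAUR68) summed to 29.7, 27.9 and 25.8 CPM in Col-0 and to 6.81, 3.16 and 1.94 CPM in 35S:RPS4, a ratio of means of 0.143. The chromosome 5 cluster (SAUR19 to SAUR24) had a ratio of 0.149, the chromosome 3 cluster (SAUR26 to SAUR29) 0.216, the chromosome 2 cluster (SAUR6, SAUR7 and SAUR12) 0.225, the first chromosome 4 cluster (SAUR14 to SAUR16) 0.236 and the second (SAUR1 to SAUR5, SAUR49 and SAUR50) 0.309. In each of the 6 clusters, no 35S:RPS4 library reached the lowest Col-0 library. The 25 single-locus genes together summed to 80.4, 101 and 94.7 CPM in Col-0 and to 97.0, 116 and 113 CPM in 35S:RPS4, a ratio of 1.18 with overlapping groups. Of their 11 tested members, 6 had a log2FC below 0 (49% of all tested genes) and 5 above it, with a median of -0.08. The sums include untested genes, whereas counts of tested members depend on the filter on low counts.

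**Figure D2:**
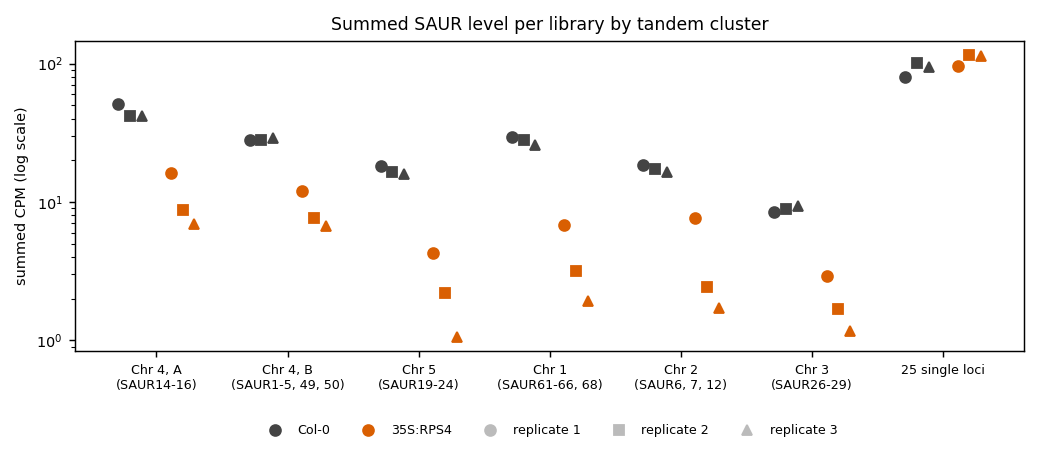
Summed CPM of the SAUR genes of each tandem cluster and of the 25 single loci in each library, on a log scale, with dark symbols for Col-0, orange symbols for 35S:RPS4 and a symbol shape for each replicate number. In every cluster the 35S:RPS4 libraries lie below the Col-0 libraries, from 0.143 times the Col-0 mean on chromosome 1 to 0.309 times in the second chromosome 4 cluster, and the single loci overlap.

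SAUR19 to SAUR24 are near-identical copies on chromosome 5 (5962773 to 5984308, TAIR10.1) that promote hypocotyl cell expansion when overproduced. Their translated coding sequences shared 89.0 to 95.6% of residues in pairs, the closest likeness of any of the clusters. The first 60 coding bases are shown to show how alike the copies are, and capitals mark bases that differ from the majority of the 6 copies:
SAUR19: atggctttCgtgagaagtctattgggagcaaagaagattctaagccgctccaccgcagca
SAUR20: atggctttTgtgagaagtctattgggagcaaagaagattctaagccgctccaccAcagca
SAUR21: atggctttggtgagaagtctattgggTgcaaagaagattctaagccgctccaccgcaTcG
SAUR22: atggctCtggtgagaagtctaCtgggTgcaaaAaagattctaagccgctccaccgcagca
SAUR23: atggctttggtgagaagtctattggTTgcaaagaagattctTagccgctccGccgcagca
SAUR24: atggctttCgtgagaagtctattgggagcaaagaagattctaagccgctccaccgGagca
In these 60 bases the copies departed from the majority at 1 to 4 positions.

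SAUR21 had the highest CPM of the copies in Col-0, with 7.60, 6.10 and 5.50 CPM in Col-0 and 1.54, 0.645 and 0.219 CPM in 35S:RPS4 (log2FC -2.97 ± 0.50, SE). Per kb of transcript, SAUR20 (8.45 ± 1.09 CPM per kb, SD) and SAUR21 (7.63 ± 1.29) did not differ beyond their spread in Col-0. SAUR20 was at 4.78, 3.74 and 4.01 against 1.07, 0.305 and 0.146 CPM (-3.01 ± 0.53). SAUR24 was at 3.39, 3.74 and 3.24 against 0.805, 0.645 and 0.183 CPM (-2.64 ± 0.39). The Col-0 values of these copies lay close together, while the 35S:RPS4 values spread over a wide range with replicate 1 highest. SAUR22 was lowered from 1.36, 0.843 and 1.17 CPM to 0.201, 0.0678 and 0.0366 CPM (-3.39 ± 0.50). SAUR19 and SAUR23 were not called, at log2FC -1.69 ± 0.54 and -1.60 ± 0.40, and neither had overlapping groups. Reads that match more than 1 place were left out of the counts, and words of 50 bases found nowhere else in the genome made 81.5% of SAUR19 and 92.9 to 99.4% of the other copies, so the split between copies is less certain than their sum. The read length is not given in the sources used here.

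The chromosome 1 cluster (10301377 to 10323239) holds the SAUR63 subfamily, known for promoting elongation of hypocotyls and stamen filaments. Of its 6 tested members 5 were lowered (1.37% of all tested genes), with a cluster median log2FC of -2.89. SAUR62 (AT1G29430, 10302585 to 10303418) was at 6.62, 6.17 and 5.13 CPM in Col-0 and at 0.973, 0.611 and 0.475 CPM in 35S:RPS4, an 8.61-fold lower level (-3.11 ± 0.26). Its groups were separated by a wide gap and its calls held without any single library. SAUR65 was lowered from 4.09, 4.79 and 3.58 CPM to 0.604, 0.509 and 0.0731 CPM (-3.36 ± 0.46). SAUR66 was lowered from 5.13, 4.21 and 4.88 CPM to 1.11, 0.407 and 0.402 CPM (-2.87 ± 0.36). These copies had Col-0 levels within a narrow band, and so did SAUR63 (5.58, 4.59 and 3.86 CPM) and SAUR64 (4.88, 4.89 and 4.82 CPM).

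In 35S:RPS4, SAUR63 was at 1.14, 0.407 and 0.292 CPM (-2.91 ± 0.43) and SAUR64 at 1.51, 0.882 and 0.475 CPM (-2.33 ± 0.34). SAUR68 (AT1G29510, a symbol that the reference also gives to AT1G29490) was at 3.33, 3.14 and 3.37 against 1.44, 0.305 and 0.219 CPM (-2.30 ± 0.58) and was not called, with 35S:RPS4 replicate 1 standing apart from the other two. SAUR61 was not tested, at 12 pooled counts in Col-0 and 2 in 35S:RPS4. Pairs in this cluster shared 57.1 to 87.4% of residues. Unique words of 50 bases made 66.1% of SAUR68, 72.9% of SAUR63 and 76.8% of SAUR62, the lowest shares among the members. SAUR63 also lies wholly within AT1G29435 on the other strand, a gene that is not a row of the table, and the library kit does not keep the strand of a read, so the reads of this pair cannot be told apart.

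The chromosome 3 cluster (976715 to 983768) holds SAUR26 to SAUR29, a subfamily known for growth responses to temperature. SAUR28 (AT3G03830, 979976 to 980562) had 31, 23 and 35 counts in Col-0 and 2 counts in each 35S:RPS4 library, and its log2FC of -3.70 ± 0.38 was the lowest of the tested members. SAUR29 was lowered from 3.52, 3.57 and 3.37 CPM to 1.01, 0.611 and 0.329 CPM (-2.41 ± 0.33). SAUR27 was lowered from 1.74, 1.85 and 2.16 CPM to 0.470, 0.373 and 0.0731 CPM (-2.62 ± 0.45). In all 3 genes the groups were far apart. Each exceeded the level of the filter on low counts in every Col-0 library, but SAUR28 did so in no 35S:RPS4 library and SAUR27 and SAUR29 in 2. These genes were therefore tested through the group where they are high. SAUR26, the fourth copy, was at 2.25, 2.66 and 2.81 against 1.38, 0.645 and 0.695 CPM (-1.499 ± 0.31, edgeR FDR 0.0138) and was not called, but it passed with the replicate number as a block (FDR 0.00877). Its protein sequence was closest to that of SAUR28, at 83.0% identity. Every 50-base word of these copies was unique in the genome.

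SAUR14 to SAUR16 stand on chromosome 4 (18124978 to 18131284). SAUR15 is the gene first isolated in Arabidopsis as SAUR-AC1, and SAUR14 and SAUR16 are known to respond to light in cotyledons. SAUR14 (AT4G38840) had the highest CPM of the clustered members in Col-0, with 23.8, 21.6 and 22.0 CPM in Col-0 and 6.41, 2.78 and 2.41 CPM in 35S:RPS4, a 5.78-fold lower level (-2.53 ± 0.34). SAUR15 (AT4G38850) was lowered from 5.83, 4.89 and 4.42 CPM to 1.41, 0.950 and 0.914 CPM (-2.20 ± 0.22). SAUR16 was at 21.4, 15.1 and 15.7 against 8.32, 4.99 and 3.66 CPM (-1.62 ± 0.30). Its groups did not overlap, but at an edgeR FDR of 0.0107 it lay just outside the threshold, and it passed with the replicate number as a block (log2FC -1.66, FDR 9.62e-05).

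On chromosome 2 (9083906 to 9090052), SAUR6 was at 18.0, 16.5 and 15.6 CPM in Col-0 and at 7.28, 2.21 and 1.54 CPM in 35S:RPS4 (-2.17 ± 0.51). The groups did not overlap, yet the gene was not called (edgeR FDR 0.0278), since 35S:RPS4 replicate 1 was several times higher than the other libraries of its group. SAUR7 had 0.349, 0.641 and 0.679 CPM against 0.268, 0.136 and 0 CPM, and its annotated transcript shares 176 bases with SAUR6 on the same strand. SAUR12 was not tested, at 21 pooled counts in Col-0 and 10 in 35S:RPS4.

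The second chromosome 4 cluster (16577180 to 16599568) was the only cluster with members called in both directions. SAUR50 (AT4G34760), known like SAUR16 for a part in cotyledon opening, was at 13.3, 12.6 and 10.3 CPM in Col-0 and at 2.78, 1.12 and 0.914 CPM in 35S:RPS4, a 7.46-fold lower level (-2.90 ± 0.38). SAUR49 was lowered from 11.7, 13.0 and 15.1 CPM to 6.81, 4.82 and 3.62 CPM (-1.38 ± 0.23), a call lost with the replicate number as a block (log2FC -1.40, edgeR FDR 0.0106). SAUR5 (AT4G34810, 16598958 to 16599568) went the other way, with 11, 13 and 8 counts in Col-0 and 41, 36 and 38 in 35S:RPS4, or 0.349, 0.438 and 0.247 against 1.38, 1.22 and 1.39 CPM (1.94 ± 0.29). The lowest 35S:RPS4 library was above the highest Col-0 library, at a level that stayed low in both genotypes. The SAUR5 call was lost without Col-0 replicate 1, Col-0 replicate 3, 35S:RPS4 replicate 2 or 35S:RPS4 replicate 3, with edgeR FDR values of 0.0114 to 0.0166 and a log2FC of 1.75 or more.

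The relatives of SAUR5 within the cluster were on the other side of 0. SAUR3, whose protein is the closest to SAUR5 among the members at 59.7% identity, was at 1.20, 0.775 and 1.91 CPM in Col-0 and 0.302, 0.237 and 0.439 CPM in 35S:RPS4 (-1.99 ± 0.43, edgeR FDR 0.0173). It was not called, but it passed with the replicate number as a block (edgeR FDR 0.00252). SAUR1 was at 1.49, 0.708 and 0.926 against 0.671, 0.204 and 0.219 CPM (-1.49 ± 0.52). SAUR4 had 28 pooled counts in Col-0 and 5 in 35S:RPS4 and was not tested. SAUR4 (16596640 to 16597368) is the gene next to SAUR5. SAUR2 had no count in any library, which allows up to 3 counts over a group.

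**Figure D3:**
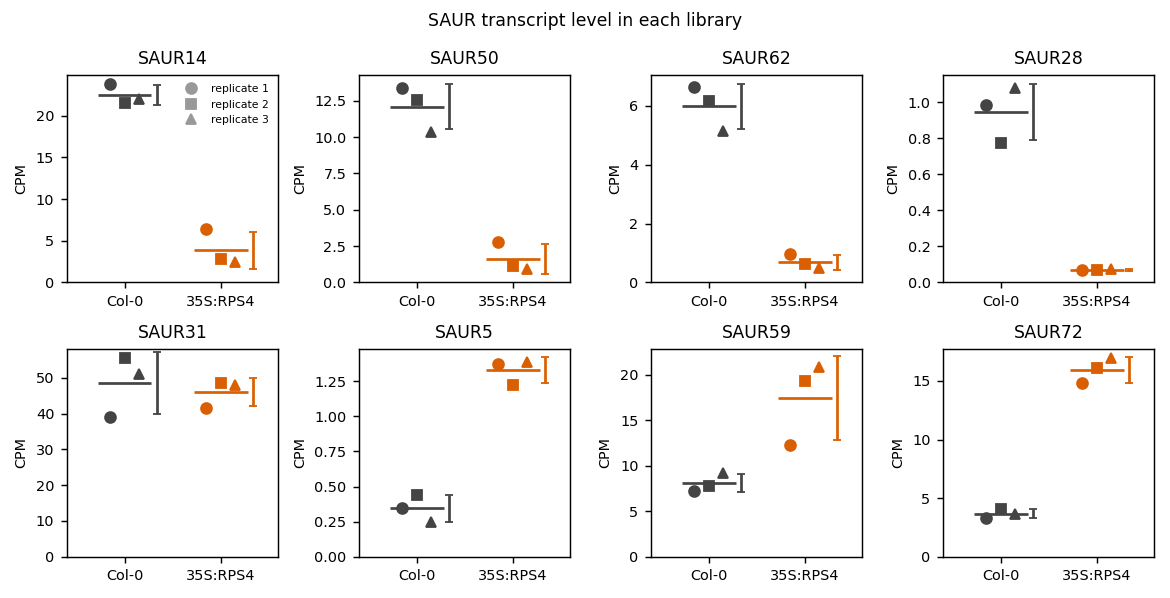
CPM (linear y axis from 0) of 8 SAUR genes in each library, with Col-0 in dark and 35S:RPS4 in orange, a symbol shape for each replicate number, a line at the mean and a bar of ± 1 SD (n = 3). SAUR14, SAUR50, SAUR62 and SAUR28 are lower in every 35S:RPS4 library, SAUR31 overlaps, and SAUR5, SAUR59 and SAUR72 are higher in every 35S:RPS4 library, SAUR72 at 14.8 to 17.0 against 3.33 to 4.05 CPM.

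Among the single loci, SAUR72 (AT3G12830, chromosome 3, 4078651 to 4079627) was raised from 3.33, 4.05 and 3.67 CPM to 14.8, 16.1 and 17.0 CPM, a 4.33-fold higher level (2.11 ± 0.12). The groups were far apart, and SAUR72 was raised under every alternative setting tried. SAUR71 (AT1G56150), its closest relative at 65.9% protein identity, was at 10.1, 10.9 and 9.29 against 18.4, 17.7 and 16.9 CPM (0.81 ± 0.09, edgeR FDR 0.000903), higher in all libraries but under the fold threshold. Both belong to the SAUR41 subfamily, also known for cell expansion. SAUR41 itself did not follow them, at 4.50, 6.95 and 5.56 CPM in Col-0 and 2.99, 4.51 and 3.62 CPM in 35S:RPS4 with overlapping groups (-0.61 ± 0.21), and SAUR40, the other member of the subfamily, had no count in any library.

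SAUR59 (AT3G60690) was raised from 7.22, 7.82 and 9.17 CPM to 12.2, 19.3 and 20.9 CPM (1.11 ± 0.21). At an edgeR FDR of 0.00997 it lay just inside the threshold, and it dropped out without any single library other than 35S:RPS4 replicate 1 (log2FC 0.97 to 1.22), under upper-quartile scaling (0.93), under plain library sizes (0.94) and with limma voom (1.08). SAUR34 was at 0.444, 0.270 and 0.309 against 1.88, 1.53 and 0.804 CPM (2.03 ± 0.40). It was not called (edgeR FDR 0.0113) but passed with the replicate number as a block (FDR 0.00309). SAUR53 was at 0.190, 0.135 and 0.154 against 0.503, 0.543 and 0.512 CPM (1.67 ± 0.35, edgeR FDR 0.0138). Like SAUR5, these last 2 genes had low levels in both genotypes, and their groups did not overlap.

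SAUR32 (AT2G46690), known for a role in the apical hook of dark-grown seedlings, was the single-locus gene that was lowered, from 10.995, 12.7 and 12.8 CPM to 2.92, 5.22 and 3.44 CPM (-1.65 ± 0.21). SAUR31 (AT4G00880), its closest relative at 57.8% protein identity, was at 38.9, 55.6 and 51.2 CPM in Col-0 and 41.5, 48.5 and 48.1 CPM in 35S:RPS4, with overlapping groups (-0.08 ± 0.14). This gene overlaps AT4G00883 on the other strand over 516 bases, which is not a row of the table. SAUR51 was at 2.25, 0.573 and 0.834 against 0.268, 0.170 and 0 CPM (-2.999 ± 0.84, edgeR FDR 0.0530). It was not called, but it passed with the replicate number as a block (edgeR FDR 0.00573). SAUR36, a gene known from leaf senescence, and SAUR9 had overlapping groups, at log2FC -0.95 ± 0.43 and -0.13 ± 0.53.

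The other single-locus genes had too few counts to be tested. SAUR25 had 6 pooled counts in Col-0 and 25 in 35S:RPS4, and SAUR10 had 28 and 5. SAUR70 had 23 and 29, SAUR69 26 and 18, SAUR52 14 and 11, SAUR35 11 and 7, and SAUR33 5 and 8. SAUR45, SAUR54 and SAUR37 had no count in Col-0 and 3, 1 and 1 in 35S:RPS4, all within the 3 counts that a count of 0 allows. SAUR2, SAUR11, SAUR38, SAUR39 and SAUR40 had no count in any library.

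Per kb of transcript, the order of the family changed between the genotypes. SAUR31 was highest in both, at 53.8 ± 9.57 CPM per kb (SD, n = 3) in Col-0 and 51.0 ± 4.39 in 35S:RPS4. In Col-0 it was followed by SAUR14 (38.6 ± 2.06), SAUR16 (16.6 ± 3.35), SAUR32 (13.6 ± 1.13) and SAUR50 (13.5 ± 1.74 CPM per kb), and the last 3 did not differ beyond their spread. In 35S:RPS4 the next genes were SAUR71 (21.8 ± 0.94), SAUR72 (16.3 ± 1.12), SAUR59 (14.7 ± 3.88) and SAUR14 (6.64 ± 3.79 CPM per kb), and SAUR72 and SAUR59 did not differ beyond their spread. SAUR72 went from rank 22 to rank 3 and SAUR50 from rank 5 to rank 12. SAUR31, SAUR59, SAUR71 and SAUR72 together made 25.4, 32.5 and 31.4% of the summed CPM of the family in Col-0 and 59.2, 71.8 and 77.5% in 35S:RPS4.

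The 35S:RPS4 libraries differed among themselves in the lower genes. Against the Col-0 mean, the median log2 difference of the 37 tested members was -1.22 in 35S:RPS4 replicate 1, -2.08 in replicate 2 and -2.60 in replicate 3. Set against the mean of the other libraries of its own group, the median was 0.951, 0.009 and -0.775 for 35S:RPS4 replicates 1 to 3, with 10, 18 and 29 of the 37 members lower. By the same measure Col-0 replicates 1 to 3 had medians of 0.034, -0.025 and -0.044, with 15, 20 and 22 members lower. RPS4 itself had its lowest 35S:RPS4 level in replicate 1 and its highest in replicate 3, and the part of this in the SAUR values was not tested. With both libraries numbered 1 left out, 22 members were lowered and 3 raised, beside 404 and 1442 of all tested genes.

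The windows from 250 bases before to 50 bases after each annotated gene start were searched on both strands for 6 short motifs, none of which contains another. Sequence plays no part in the counts, but tandem copies share descent, so their windows are not independent of each other. The E-box CACATG, of the kind that PIFs and other bHLH factors bind, was found in 12 of the 17 lowered genes (70.6%), in 21 of the 30 clustered genes (70.0%), in 5 of the 25 single-locus genes (20.0%) and in 12.9% of the windows of 27561 protein-coding genes. The auxin response element TGTCTC, bound by ARFs, was found in 5 lowered genes (29.4%), 8 clustered genes (26.7%), 1 single-locus gene (4.0%) and 14.1% of all. The W-box core TTGAC, bound by WRKY factors, was found in 8 lowered genes (47.1%), 16 clustered genes (53.3%), 14 single-locus genes (56.0%) and 50.4% of all. The G-box CACGTG was found in SAUR59 alone of the 55 members and in 7.65% of all. CGCG, a form of the core CGyG (y is C or T) bound by CAMTA factors, and TGGGCC, a TCP-type site, were each found in 2 of the 55 members (3.64%) and in 13.0 and 15.4% of all. The form CGTG was not searched, so these shares do not cover all CAMTA core sites. A motif is a match of letters, and neither a match nor its absence shows whether a factor binds.

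**Figure D4:**
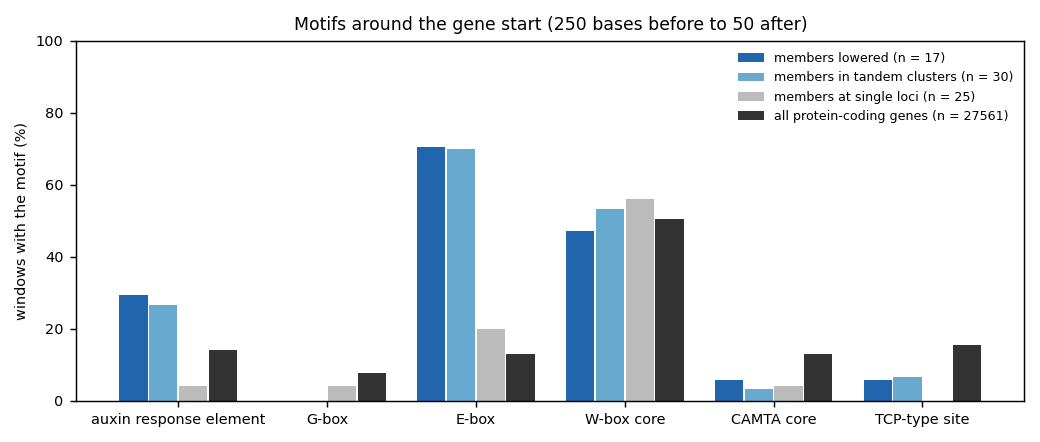
Share (%) of windows from 250 bases before to 50 bases after the gene start that hold each motif on either strand, for the 17 lowered SAUR genes, the 30 clustered SAUR genes, the 25 single-locus SAUR genes and 27561 protein-coding genes. The E-box bars stand at 70.6, 70.0, 20.0 and 12.9%, and the W-box core lies between 47.1 and 56.0% in all 4 sets.

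Counting E-boxes wholly before the start, the nearest in the 12 lowered genes lay 10 to 231 bases before it, with a median of 93.5. SAUR65, SAUR27, SAUR15 and SAUR64 also had an E-box after the start, with its first base at 6, 12, 15 and 17. SAUR15, SAUR62 and SAUR63 had a further E-box before the start, with its first base at -225, -109 and -193, which is not in the list here. The nearest site before the start of each gene is shown with up to 8 flanking bases, in the direction of transcription and with the E-box in capitals (TAIR10.1), because the flanks show which copies share the surrounding sequence:
SAUR21 (chr5:5968302-5968323, plus strand): gacagaacCATGTGagctctgt
SAUR22 (chr5:5975179-5975200, minus strand): gacagaacCATGTGaactcttg
SAUR62 (chr1:10303419-10303436, minus strand): aacataatCATGTGttgt
SAUR63 (chr1:10305187-10305208, minus strand): aacataagCATGTGttgtgtcg
SAUR64 (chr1:10306677-10306698, minus strand): ttcatactCACATGgtcatgtc
SAUR65 (chr1:10308337-10308358, minus strand): aataccccCACATGgtcatgtt
SAUR66 (chr1:10320967-10320988, plus strand): ttgataccCACATGatcatgtc
SAUR29 (chr3:977618-977639, minus strand): agcattgtCATGTGatcctatt
SAUR28 (chr3:980568-980589, minus strand): aacaaaacCATGTGaaaaactt
SAUR27 (chr3:980833-980854, plus strand): gcatttgtCATGTGatatgttc
SAUR14 (chr4:18125631-18125652, minus strand): ggcaaagcCATGTGcttgcttg
SAUR15 (chr4:18125943-18125964, plus strand): agatttggCATGTGatgtcttt
Among these nearest sites, like flanks were seen within clusters, in SAUR21 with SAUR22, in SAUR62 with SAUR63 and in SAUR64 with SAUR66. The further SAUR62 site at -109 had flanks like those of the SAUR66 site, so the likeness depends on the site compared. SAUR65 was like SAUR64 and SAUR66 mainly in the bases after the E-box.

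An E-box also stood before the raised SAUR5, shown here for the contrast with its relatives:
SAUR5 (chr4:16598881-16598902, plus strand): agttaagcCATGTGagaagata
Its first base was at -69 from the gene start, and the lower neighbours SAUR3 and SAUR1, neither of them called, had theirs at -70 and -71. An E-box was found in 1 of the 3 raised members (33.3%), beside 12 of the 17 lowered members (70.6%). The part of this motif in the values was not tested.

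The 250 bases before the start are printed for SAUR62, among the most lowered genes, for SAUR5 and for SAUR72, whose calls were opposite, with the searched motifs in capitals (TAIR10.1):
SAUR62 (chr1:10303419-10303668, minus strand): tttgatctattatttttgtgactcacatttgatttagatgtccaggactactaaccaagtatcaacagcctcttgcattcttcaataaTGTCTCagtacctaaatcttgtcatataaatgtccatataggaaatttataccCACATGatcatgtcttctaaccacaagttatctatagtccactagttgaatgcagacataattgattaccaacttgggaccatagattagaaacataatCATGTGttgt
SAUR5 (chr4:16598708-16598957, plus strand): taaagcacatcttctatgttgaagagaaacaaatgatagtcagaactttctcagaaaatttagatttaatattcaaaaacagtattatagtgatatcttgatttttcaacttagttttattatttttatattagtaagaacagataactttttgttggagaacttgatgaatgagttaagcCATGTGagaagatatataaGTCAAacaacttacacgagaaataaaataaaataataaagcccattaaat
SAUR72 (chr3:4079628-4079877, minus strand): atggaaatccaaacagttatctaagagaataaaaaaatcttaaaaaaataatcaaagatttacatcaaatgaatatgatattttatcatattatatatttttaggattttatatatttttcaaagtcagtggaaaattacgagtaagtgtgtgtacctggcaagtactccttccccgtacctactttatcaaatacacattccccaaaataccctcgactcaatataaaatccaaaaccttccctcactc
SAUR62 held 2 E-boxes and an auxin response element, SAUR5 an E-box and a W-box core, and SAUR72 none of the 6 motifs in its window.

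The proteins of the lowered genes were 88 to 186 residues long with a median of 99, and those of the 3 raised genes 118 to 170 residues with a median of 132. Likeness of protein sequence did not go with direction in every pair: SAUR71 and SAUR72 were both higher, SAUR50 and SAUR16 (80.6% identity) both lower, while SAUR5 and SAUR3 were on opposite sides of 0, as were SAUR49 and SAUR53 (48.7%).

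Outside the list, 23 further genes of the table are SAUR genes by their product name in the reference, and 7 of them were tested, with a median log2FC of 0.10. SAUR48 and SAUR78 were raised and SAUR42 was lowered. These 3 genes were picked out after their values were seen. SAUR48 (AT3G09870, chromosome 3) had 1, 1 and 2 counts in Col-0 and 720, 727 and 797 counts in 35S:RPS4. Its 24.2, 24.7 and 29.1 CPM in 35S:RPS4 exceeded the level of each raised member in every library. SAUR78 was at 27.9, 24.6 and 21.6 against 57.4, 47.1 and 50.6 CPM (1.07 ± 0.12). SAUR42 was at 0.919, 1.05 and 0.895 against 0.201, 0.237 and 0.292 CPM (-1.95 ± 0.30).

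Genes that act with SAUR proteins or in auxin synthesis, perception and turnover were taken from 6 lists with 49 genes. Of these 37 were tested, and 2 were raised and 2 lowered, beside 7.83% of all genes called in either direction. The median log2FC was -0.06. The proton pumps, on which SAUR19-type proteins act through the phosphatases, were not called in any of the 9 tested genes, with a median log2FC of -0.05. AHA1 (listed as HA1, AT2G18960), the most abundant, was at 464, 476 and 432 CPM in Col-0 and 441, 469 and 434 CPM in 35S:RPS4 (-0.03 ± 0.07, edgeR FDR 0.851), with overlapping groups. HA7 (AT3G60330) was at 1.36, 1.72 and 1.91 against 0.805, 0.645 and 1.24 CPM, lower in every 35S:RPS4 library (-0.90 ± 0.30, edgeR FDR 0.0884). Of the 9 PP2C.D phosphatases, AT4G33920 was raised from 25.4, 32.6 and 29.7 CPM to 91.1, 161 and 165 CPM (2.25 ± 0.24, edgeR FDR 0.000922), with wide separation of the groups. AT5G02760, also a PP2C.D gene, was at 94.4, 35.1 and 43.1 against 36.7, 7.90 and 6.32 CPM, with overlapping groups and replicate 1 highest in both genotypes.

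The auxin receptors TIR1 and AFB1 to AFB5 were each lower in every 35S:RPS4 library than in any Col-0 library, as were 16.3% of all tested genes. AFB3 alone was called, at 27.6, 28.6 and 26.7 against 14.9, 10.5 and 9.83 CPM (-1.23 ± 0.15, edgeR FDR 0.00137). AFB2 and AFB4 did not pass even an FDR of 0.05 (edgeR FDR 0.196 and 0.0508). TIR1 was at 56.4, 67.8 and 70.8 against 41.7, 37.8 and 31.7 CPM (-0.81 ± 0.13, edgeR FDR 0.00399), under the fold threshold. The AFB3 call was lost without Col-0 replicate 2 (edgeR FDR 0.0111). YUC6, a flavin monooxygenase of auxin synthesis, was lowered from 5.23, 3.67 and 3.80 CPM to 0.805, 0.407 and 0.402 CPM (-2.96 ± 0.31, edgeR FDR 0.000574). YUC2, from the same list, was at 3.07, 0.775 and 0.957 against 0.839, 0.0339 and 0.0366 CPM and was not called. It passed with the replicate number as a block (log2FC -2.63, edgeR FDR 0.00602) and with both libraries numbered 1 left out (log2FC -4.49, edgeR FDR 0.000673). TAR2, the most abundant synthesis gene of the 4 tested, had a log2FC of -0.20 ± 0.16.

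Of the GH3 enzymes, which conjugate auxin to amino acids and are themselves auxin-induced, WES1 (GH3.5, AT4G27260) was raised from 1.05, 0.674 and 0.926 CPM to 2.25, 3.46 and 3.95 CPM (1.86 ± 0.28, edgeR FDR 0.00346). The groups did not overlap, and the call was lost without Col-0 replicate 2, Col-0 replicate 3, 35S:RPS4 replicate 2 or 35S:RPS4 replicate 3 (edgeR FDR 0.0156 to 0.0200). The other 3 tested GH3 genes had overlapping groups. None of the 5 activating ARF genes was called, and ARF6, the most abundant, had a log2FC of 0.14 ± 0.11, which turned to -0.04 under upper-quartile scaling and -0.03 under plain library sizes.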

How the data were processed

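Polyadenylated leaf RNA was prepared with the TruSeq v2 chemistry, in which strand is not kept. The authors deposited raw read counts per gene without normalization. HTSeq, TopHat2 2.0.10, FastQC 0.11.2 and the genome build TAIR10 are listed in the submitters' processing notes, and the strand setting of the counting is not given in the sources used here. Summary entries of the table, 6.45 to 8.30% of counts per library (5.08 to 6.97% with more than 1 alignment), are no genes and were set aside. All 6 count columns belonged to a library of the 2 groups.

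Counts were fitted in R 4.3.3 by edgeR 4.0.16 (TMM scaling, filterByExpr, robust quasi-likelihood fits, genotype as the sole term, two-sided), after the steps were tested on simulated data. DESeq2 1.42.0 and limma 3.58.1 served as alternatives, beside other scalings, no filter, the replicate number as a block, FDR below 0.05 and each library left out. CPM used TMM-scaled library sizes. Every SAUR member called or with an FDR below 0.05 is named, with the member of most counts in each cluster, the 5 other tested members of most counts, and of the auxin lists each called gene and the gene of most counts; the other members are named for completeness, and AT5G02760, HA7 and YUC2 after their values were seen. The members, lists and motifs were chosen with earlier results of these data known, and the fits with both libraries numbered 1 left out were added after the data were seen.

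Gene symbols, coordinates and sequences are those of RefSeq for TAIR10.1, to which 31912 of 32678 identifiers matched. Identity was computed with Biopython 1.88 from translated coding sequences. Libraries of a group differed by a chi-square of 8.22 to 39.5 per gene, far above sampling noise. Across genes, deviations from group means had correlations of 0.429, 0.129 and 0.282 between libraries of the same replicate number. Other pairs ran from -0.356 to 0.158. The value of 0.129 lay below the highest of the other pairs, so pairing was not established for every replicate number. The main fit had genotype as its sole term and did not pair the libraries. The replicate number served as a block in an alternative fit. Limits of 3 counts for a count of 0 cover counting error only. Depth limits the precision of low counts: total gene counts were 28659022 to 31007551 per library. At higher counts the spread between libraries limits it as well.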

Additional observations from a re-analysis of the deposited data

How the results depend on the processing

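The median log2FC of the tested members stayed between -1.64 and -2.36 under all alternatives, and between 29 and 31 members were below 0. The number of lowered members, 17, was 16 to 24 under other scalings, filters, tools, the replicate block (20, of which 16 shared) and the looser threshold. Without 1 library it was 5 to 21, and that of raised members 1 to 3, with fewer libraries in each fit. Under FDR below 0.05 with no fold threshold, 6 members were raised, and 1150 genes of all were lower, 1934 higher and 9 of the auxin lists passed. Upper-quartile scaling gave 391 genes lowered and 1105 raised, and plain library sizes 377 and 1092, against 251 and 1188. With these scalings the median over all genes was -0.17 and -0.16, and the 6 members above 0 stayed above it. Without 1 library, 99 to 337 genes were lowered, 841 to 1374 raised, and 2 to 4 of the auxin lists called. With both libraries numbered 1 left out, 404 genes were lowered and 7 of the auxin lists called, among them AT5G02760. Reversals were limited to values near 0: without 1 library SAUR31 ran from -0.22 to 0.032 (the highest without Col-0 replicate 2), AHA1 from -0.070 to 0.0047 (likewise) and SAUR9 from -0.46 to 0.36, with 0.17 without 35S:RPS4 replicate 1, and ARF6 was at -0.041 under upper-quartile scaling and -0.028 under plain library sizes. Their cause was not tested. The replicate block changed calls of SAUR3, SAUR16, SAUR26, SAUR34, SAUR49, SAUR51 and, in the auxin lists, YUC2, and no other member or auxin-list call. Members with fewer than about 10 counts per library are limited by depth.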
